A study of Homo sapiens with 18 samples.

Results

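The major histocompatibility complex (MHC) is the gene-dense stretch of the short arm of chromosome 6 that encodes the antigen-presenting proteins of the immune system. Its protein-coding genes were taken as those lying wholly between 29.6 and 33.15 Mb of chromosome 6 in hg19, which gave 140 of the 20098 protein-coding genes on chromosomes 1 to 22 and X. By the position of the transcription start site (TSS), 51 genes fell in class I (up to 31.5 Mb), 68 in class III (31.5 to 32.35 Mb) and 21 in class II (from 32.35 Mb). The genes were taken by position alone, but the region was chosen with earlier results of these data known.

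The samples came from untreated, undifferentiated cells of HL-60/S4, an established human myeloid leukemia cell line and the only line used, in which the positions of 2 linker histone isotypes, H1.2 and H1.5, were measured. In xChIP the formaldehyde-fixed cells were sonicated before the antibody was added. In xxChIP the antibody entered fixed, permeabilized cells, was fixed in place by a second crosslinking, and the sonication came afterwards. Each of the 4 combinations of protocol and rabbit polyclonal antibody, named by both (xChIP H1.2 and so on), had 3 replicates whose peaks the authors merged into 1 list, so 12 immunoprecipitated samples stand behind 4 lists. The lists give the start and end of each peak and nothing else. Depth is unknown, no spread between replicates exists, no test over samples could be made, and no cell type marker could be checked. Every value below describes 4 merged lists, and counts and medians over the classes are set beside the same measure over all protein-coding genes.

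Class I molecules display peptides from inside the cell to cytotoxic T cells, and class II molecules display peptides from endocytosed material to helper T cells. The class II interval also holds genes that cut, transport and load peptides, and the class III interval holds complement, cytokine, heat shock and many housekeeping genes. Class II genes are expressed mainly in antigen-presenting cells, under the transactivator CIITA together with the RFX and NF-Y factors. Linker histone H1 binds the nucleosome where DNA enters and leaves it and is known for its part in chromatin compaction.

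The 250 bases upstream of the TSS are printed for 7 genes chosen to show covered and uncovered starts side by side, 5′ to 3′ on the strand of the gene, from the GRCh37 (hg19) reference. They are reference sequence, and the HLA alleles of HL-60/S4 were not analysed here. Capitals mark CCAAT on either strand (read as CCAAT or ATTGG), the letters that NF-Y binds. The first 3 are class I genes, of which HLA-C (chr6:31239870-31240119, minus strand) and HLA-E (chr6:30457036-30457285, plus strand) were wholly inside xChIP H1.2 peaks over these bases, whereas HLA-G (chr6:29795352-29795601, plus strand) was outside the peaks of all 4 lists.
HLA-C: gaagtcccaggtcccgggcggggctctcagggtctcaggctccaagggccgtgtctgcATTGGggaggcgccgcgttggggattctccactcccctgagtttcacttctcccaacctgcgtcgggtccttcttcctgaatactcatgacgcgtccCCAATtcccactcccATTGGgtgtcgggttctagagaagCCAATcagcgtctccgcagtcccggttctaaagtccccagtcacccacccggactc
HLA-E: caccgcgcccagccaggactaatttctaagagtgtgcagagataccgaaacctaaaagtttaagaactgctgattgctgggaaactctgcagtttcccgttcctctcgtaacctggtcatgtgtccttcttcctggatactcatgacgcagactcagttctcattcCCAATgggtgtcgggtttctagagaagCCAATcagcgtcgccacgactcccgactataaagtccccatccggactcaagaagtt
HLA-G: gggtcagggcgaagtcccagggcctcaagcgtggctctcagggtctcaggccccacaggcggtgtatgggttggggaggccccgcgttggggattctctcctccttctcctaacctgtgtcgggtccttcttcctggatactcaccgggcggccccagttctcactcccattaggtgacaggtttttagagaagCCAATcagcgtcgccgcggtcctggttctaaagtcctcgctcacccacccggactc
The next is the class III gene TNF (chr6:31543092-31543341, plus strand), without a peak of any list over these bases and without CCAAT.
TNF: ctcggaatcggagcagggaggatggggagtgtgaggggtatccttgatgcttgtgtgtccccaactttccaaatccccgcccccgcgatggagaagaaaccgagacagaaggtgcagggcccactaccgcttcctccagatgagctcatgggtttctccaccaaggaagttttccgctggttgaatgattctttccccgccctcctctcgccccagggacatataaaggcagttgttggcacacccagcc
The near-identical heat shock genes HSPA1A (chr6:31783070-31783319, plus strand) and HSPA1B (chr6:31795265-31795514, plus strand) shared 235 of 251 aligned bases (93.6%) in this stretch. Both were wholly inside an xChIP H1.2 peak here, and HSPA1B also inside an xChIP H1.5 peak.
HSPA1A: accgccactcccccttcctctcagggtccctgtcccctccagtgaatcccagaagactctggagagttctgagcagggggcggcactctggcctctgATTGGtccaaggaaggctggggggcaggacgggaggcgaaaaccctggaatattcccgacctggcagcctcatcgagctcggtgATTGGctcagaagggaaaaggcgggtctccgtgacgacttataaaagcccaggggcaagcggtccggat
HSPA1B: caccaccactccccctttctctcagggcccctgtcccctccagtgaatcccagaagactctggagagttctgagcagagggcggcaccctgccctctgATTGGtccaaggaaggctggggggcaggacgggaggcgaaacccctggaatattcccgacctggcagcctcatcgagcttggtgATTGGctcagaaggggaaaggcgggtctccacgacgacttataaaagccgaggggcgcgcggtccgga
The last is the class II gene HLA-DQA2 (chr6:32708918-32709167, plus strand), wholly inside an xxChIP H1.2 peak over these bases and outside the peaks of the other lists.
HLA-DQA2: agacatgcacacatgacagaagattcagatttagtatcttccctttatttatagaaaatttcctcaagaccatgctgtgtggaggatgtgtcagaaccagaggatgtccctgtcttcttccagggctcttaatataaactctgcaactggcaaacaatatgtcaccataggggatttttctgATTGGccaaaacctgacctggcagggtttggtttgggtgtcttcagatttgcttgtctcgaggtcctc

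A CCAAT stood 56 bases upstream of the TSS in HLA-B, HLA-C and HLA-G, and 57 bases upstream in HLA-E and HLA-F. The number of CCAAT in the printed stretches differed, with 4 in HLA-C, 2 in HLA-E and 1 in HLA-G. A relation to coverage was not tested. CCAAT occurred in the 250 upstream bases of 17 of the 21 class II genes (81.0%), including 12 of the 13 class II HLA genes (92.3%). The shares were 43.1% of class I genes, 35.3% of class III genes and 34.1% of all 20098 genes. These are letter matches in a fixed window and show no binding.

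Peaks at the TSS were counted in a window of 1000 bp on either side of the start of the canonical transcript, and a window was called overlapped from 1 shared bp. xChIP H1.2 peaks overlapped 99 of the 140 MHC windows (70.7%, 95% Wilson interval 62.7 to 77.6), beside 47.2% of all protein-coding genes. In class III 56 of 68 windows were overlapped (82.4%, 71.6 to 89.6), in class I 37 of 51 (72.5%, 59.1 to 82.9) and in class II 6 of 21 (28.6%, 13.8 to 50.0). The intervals cover counting error only and are too narrow, because neighbouring genes often lie under the same peak. Class III and class I thus stood above the share of all genes, and class II below it with an interval that included it.

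xChIP H1.5 peaks overlapped 25 class III windows (36.8%), 9 class I windows (17.6%) and 1 class II window (4.76%), that of HLA-DQB2, beside 20.7% of all genes. The order of the classes was the same as for H1.2, at lower levels.

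xxChIP peaks were sparse at these starts, as they were over all genes. Each xxChIP list overlapped 13 of the 140 MHC windows (9.29%, Wilson interval 5.51 to 15.2). That interval included the shares of all genes, 7.87% for H1.2 and 7.14% for H1.5. xxChIP H1.2 overlapped 3 class III windows (4.41%), 5 class I windows (9.80%) and 5 class II windows (23.8%), beside 7.87% of all genes. xxChIP H1.5 overlapped 5, 6 and 2 windows (7.35%, 11.8% and 9.52%), beside 7.14% of all genes. Its class III genes were C6orf47, LY6G6D, CFB, TNXB and NOTCH4, and its class II genes were HLA-DRB5 and HLA-DOB. For xxChIP H1.2 the order of the classes was the reverse of that for xChIP H1.2, on counts of 5 or fewer. The class III genes under xxChIP H1.2 were LY6G6F, LY6G6D and their read-through LY6G6F-LY6G6D, which overlaps both. The class I genes under xxChIP H1.2 were RNF39, TRIM39, MUC22, HCG22 and MICA, each over 0.700 to 9.35% of the window. With windows of 500 bp on either side no class I gene remained, against 2 in class III and 3 in class II. The share of all genes was not counted at that width.

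**Figure D1:**
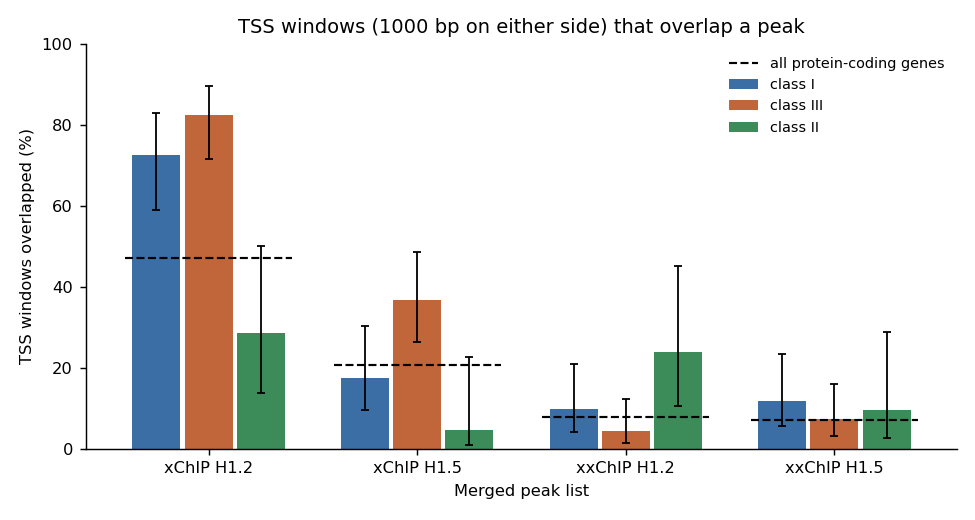
Share of TSS windows (%, vertical axis) overlapped by a peak of each merged list (horizontal axis), with bars for class I (51 genes), class III (68) and class II (21), 95% Wilson error bars for counting error only, and dashed lines for all 20098 protein-coding genes. xChIP H1.2 reached 82.4% in class III and 28.6% in class II, whereas xxChIP H1.2 stood at 4.41% and 23.8%.

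Taken by protocol, 86 of the 140 windows (61.4%) held an xChIP peak of either isotype and no xxChIP peak, beside 48.1% of all genes. In class III this was 50 of 68 genes (73.5%), in class I 31 of 51 (60.8%) and in class II 5 of 21 (23.8%), namely HLA-DQB2, PSMB9, TAP1, HLA-DPA1 and HLA-DPB1. The opposite pattern, an xxChIP peak without an xChIP peak, was found at 9 MHC windows (6.43%), beside 6.52% of all genes. Of these 9, 5 were class II genes (HLA-DRA, HLA-DQA1, HLA-DQA2, HLA-DOB and HLA-DMB), 3 were class I genes (RNF39, TRIM39 and MUC22) and 1 was the class III gene NOTCH4. Peaks of both protocols met at 16 windows (11.4%, all genes 5.92%), of which HLA-DRB5 and HLA-DOA were in class II. No list had a peak at 29 windows (20.7%, all genes 39.5%), with 9 of the 21 class II genes (42.9%) among them.

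Taken by isotype within xChIP, H1.2 and H1.5 peaks met at 25 class III windows (36.8%), 7 class I windows (13.7%) and no class II window, beside 13.9% of all genes. H1.2 without H1.5 was found at 31 class III (45.6%), 30 class I (58.8%) and 6 class II windows (28.6%), beside 33.3% of all genes. H1.5 without H1.2 was found at 3 of the 140 windows, beside 6.84% of all genes. They were RPP21, a subunit of ribonuclease P, MICB and HLA-DQB2.

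Over whole gene bodies, the median share of bases under xChIP H1.2 peaks was 99.6% in class III, 56.8% in class I and 12.3% in class II, beside 26.3% over all genes. With all gene bases pooled, class III and class I stood close, at 66.2% and 62.1%. Class II was at 20.1%, beside 28.4% over all genes. At least 50% of the body was covered in 51 class III genes, 28 class I genes and 2 class II genes, or 57.9% of the 140, beside 31.0% of all genes. The whole body lay under xChIP H1.2 peaks in 34 class III genes (50.0%), 20 class I genes (39.2%) and no class II gene, beside 10.2% of all genes. For xChIP H1.5 the medians were 18.7%, 11.4% and 0%, beside 10.3%, and 26 MHC genes (18.6%) were covered to at least 50%, beside 4.88% of all genes. For both xxChIP lists the median was 0% in each class, beside 5.88% (H1.2) and 4.30% (H1.5) over all genes, and 3 MHC genes per list (2.14%) were covered to at least 50%, beside 2.20% and 1.80%. For xxChIP H1.2 these were HLA-F, LY6G6D and HLA-DOA, and for xxChIP H1.5 they were LY6G6D, HLA-DMA and the read-through ENSG00000248993 that overlaps HLA-DMA.

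**Figure D2:**
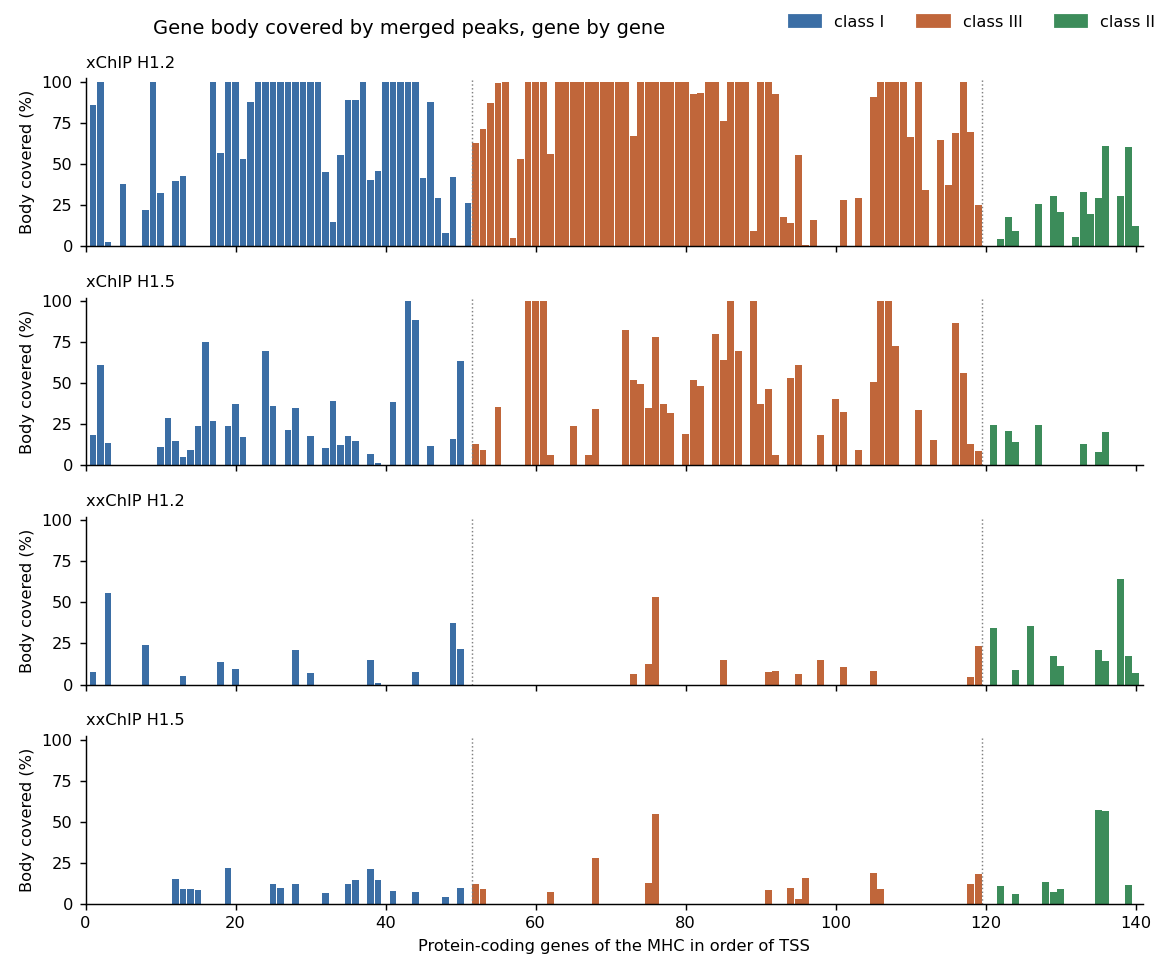
Share of each gene body (%, vertical axis) under peaks of each merged list (4 panels) for the 140 MHC genes in order of TSS (horizontal axis), coloured by class with dotted lines between classes. Bars reach 100% for runs of neighbouring class I and class III genes in the xChIP H1.2 panel, with a gap in class III around the complement genes, and stay at or below 64.1% in both xxChIP panels.

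Compared gene by gene, body coverage was higher for xChIP H1.2 than for xxChIP H1.2 in 62 of 68 class III genes (median difference 92.6 percentage points), 41 of 51 class I genes (55.2) and 12 of 21 class II genes (5.47), beside 66.9% of all genes (16.3). It was lower in 1 class III gene (1.47%), 3 class I genes (5.88%) and 4 class II genes (19.0%), beside 20.4% of all genes. For H1.5 the xChIP list was higher in 42 class III (61.8%), 29 class I (56.9%) and 5 class II genes (23.8%), beside 50.2% of all genes. It was lower in 3 (4.41%), 5 (9.80%) and 7 (33.3%), beside 27.4% of all genes. Class II alone had more genes with the larger xxChIP H1.5 coverage, but only by 7 against 5, with 9 of its 21 genes equal. Among the 7 are HLA-DMA and its read-through ENSG00000248993, which overlap, so the counts are too small to set class II apart. Between isotypes, xChIP H1.2 exceeded xChIP H1.5 in 51 class III (75.0%), 40 class I (78.4%) and 12 class II genes (57.1%), beside 69.2% of all genes.

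Among the classical class I genes, which present peptides on nearly all nucleated cells, xChIP H1.2 peaks covered 29.0% of HLA-C and 7.93% of HLA-B. No peak of xChIP H1.5 or xxChIP H1.2 lay in either body, and xxChIP H1.5 covered 4.10% of HLA-B alone. At the TSS window the xChIP H1.2 values were 78.8% for HLA-C and 0% for HLA-B. HLA-B and HLA-C lay in the longest stretches of the region without an xChIP H1.5 peak, of 82595 bp (31291290 to 31373884) and 69454 bp (31220817 to 31290270).

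The other class I HLA genes covered the whole range. HLA-E, which engages an inhibitory receptor of natural killer cells, was covered in xChIP to 100% (H1.2) and 27.2% (H1.5), with no xxChIP peak. HLA-G, best known from the placenta, had no peak of any list in its body or its TSS window. HLA-F was covered in xChIP to 2.51% (H1.2) and 13.6% (H1.5) and by xxChIP H1.2 to 55.8%, and its difference of -53.3 points between the protocols was the most negative of the 140 genes. Over the 6 class I HLA genes the median xChIP H1.2 coverage was 18.5%, whereas over the other 45 class I genes it was 87.4%.

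MICA and MICB encode stress-induced ligands of the receptor NKG2D. MICA was covered in xChIP to 42.0% (H1.2) and 15.7% (H1.5), and by xxChIP H1.2 to 37.4%. MICB had no xChIP H1.2 peak, and the other lists covered 63.7% (xChIP H1.5), 21.8% (xxChIP H1.2) and 9.38% (xxChIP H1.5) of it. At its TSS window xChIP H1.5 covered 100% and no other list had a peak.

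Outside the HLA genes, class I coverage came in long runs. The longest xChIP H1.2 peak of the region, of 178029 bp (30586698 to 30764726), overlapped 10 genes from MRPS18B to IER3 and held 9 of them whole, among them TUBB (a beta tubulin), MDC1 (a DNA damage response protein) and FLOT1. The largest differences between xChIP H1.2 and xxChIP H1.2 in class I were 100 against 0%, and ZFP57 (an imprinting regulator), TRIM31 and HLA-E were the first 3 such genes in genomic order. The smallest were HLA-F, MICB and RNF39 (-2.27 points, 21.7 against 23.9%). POU5F1, the gene of the pluripotency factor OCT4, was covered in xChIP to 87.4% (H1.2) and 11.4% (H1.5). A stretch of 40488 bp (30278885 to 30319372) without an xChIP H1.2 peak held TRIM39, RPP21 and their read-through, and RPP21 was covered to 75.3% by xChIP H1.5.

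In class III the cytokine genes LTA, TNF and LTB stand side by side. xChIP H1.2 covered 100% of LTA (lymphotoxin alpha), 4.73% of TNF and 52.9% of LTB (lymphotoxin beta), and no other list covered any of the 3 bodies. The TSS window of TNF had no peak of any list, that of LTA was 100% covered by xChIP H1.2, and that of LTB was covered in xChIP to 18.2% (H1.2) and 11.8% (H1.5). Just beyond them, LST1, NCR3 (the natural killer receptor NKp30) and AIF1 (a myeloid and microglial calcium-binding protein) were covered to 100% in body and TSS window by both xChIP lists and to 0% by both xxChIP lists. The 22 genes from MCCD1, the last of class I, to LY6G5C lay in the longest stretch of the region without an xxChIP H1.2 peak, of 174168 bp (31493303 to 31667470).

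BAG6, a chaperone, was covered in xChIP to 100% (H1.2) and 24.0% (H1.5), and DDX39B, an RNA helicase, to 62.4% and 12.7%. LY6G6D was the class III gene with the largest xxChIP coverage, 53.5% (H1.2) and 54.6% (H1.5), beside 100% and 77.8% in xChIP. TNXB (tenascin X) was covered to 90.7% (H1.2) and 50.4% (H1.5) in xChIP and to 7.94% and 18.7% in xxChIP. It begins the longest class III peak of xChIP H1.2, of 117794 bp (32015837 to 32133630), which overlapped 8 genes up to EGFL8. NOTCH4 was covered to 69.5% and AGER, a receptor for glycated proteins, to 37.1% by xChIP H1.2. The TSS window of NOTCH4 held an xxChIP H1.5 peak over 43.6% of its length and no xChIP peak.

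The gap in class III coverage fell around the complement genes, and the bodies there without an xChIP H1.2 peak were those of their neighbours. C2 was covered in xChIP to 55.5% (H1.2) and 60.8% (H1.5), CFB (complement factor B) to 0.699% by xChIP H1.2 and 15.6% by xxChIP H1.5. SKIC2 had no xChIP H1.2 peak in its body and 14.8% under xxChIP H1.2, DXO had no peak of any list, and STK19 had 40.6% under xChIP H1.5 alone. These 3 genes lay in a stretch of 36852 bp (31926672 to 31963523) without xChIP H1.2 peaks. SKIC2 had the smallest difference between the H1.2 lists in class III (-14.8 points). DXO and STK19 came next only as the first in genomic order of 5 class III genes with equal coverage by both H1.2 lists. C4A was covered in xChIP to 28.0% (H1.2) and 32.4% (H1.5) and by xxChIP H1.2 to 10.6%, and for C4B the same values were 29.1%, 9.35% and 0%. xChIP H1.2 covered 100% of the TSS window of C4B, and that of C4A had no peak of any list. CYP21A2, the steroid 21-hydroxylase gene, had no peak of any list.

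Part of this gap is duplicated sequence, and only uniquely mappable reads had been kept. The share of 50-base words that occur once in the reference was 2.59% in C4A and in C4B, 36.7% in CYP21A2 and 72.6% in STK19, but 98.2% in SKIC2, 100% in DXO and 100% in CFB. The stretch around CYP21A2 without xChIP H1.2 peaks (31988576 to 32015836) had 18.5% such words. Values of C4A, C4B and CYP21A2 are therefore uncertain, and the part of the duplication in them was not tested. The same holds for HSPA1A (26.5%) and HSPA1B (29.8%), encoding the inducible HSP70. xChIP H1.2 covered 100% of HSPA1A and 9.30% of HSPA1B, xChIP H1.5 covered 0% and 100%, and neither xxChIP list covered either. The third heat shock gene, HSPA1L, with 95.7% such words, was covered in xChIP to 100% (H1.2) and 69.8% (H1.5). Without the 8 genes under 80%, all in class III, the class III median for xChIP H1.2 was 100% and 86.7% of TSS windows were overlapped.

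**Figure D3:**
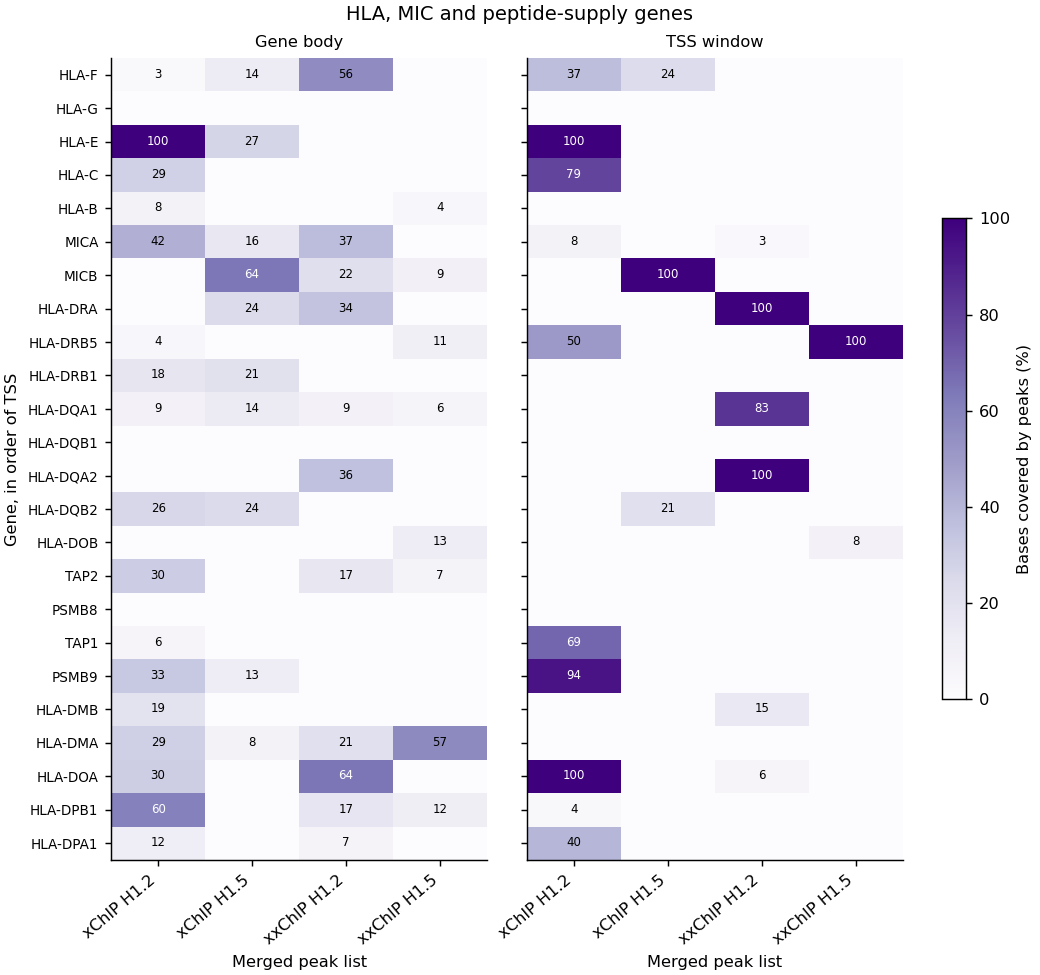
Share of bases covered by peaks (%, colour and printed value) in the gene body (left) and the TSS window (right) for 18 HLA genes, MICA, MICB and the 4 peptide-supply genes (rows, in order of TSS) in each merged list (columns). Blank cells are 0%. The TSS windows of HLA-DRA, HLA-DQA1, HLA-DQA2 and, to 15.3%, HLA-DMB are covered by xxChIP H1.2 and by no other list.

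The classical class II genes encode the alpha and beta chains of DR, DQ and DP. HLA-DRA, the DR alpha chain, was covered to 24.3% by xChIP H1.5 and 34.5% by xxChIP H1.2, and its TSS window to 100% by xxChIP H1.2 alone. HLA-DRB1 was covered in xChIP to 17.9% (H1.2) and 20.7% (H1.5), without a peak of any list at its TSS. HLA-DRB5, which only some haplotypes carry, had xChIP H1.2 peaks over 50.5% and xxChIP H1.5 peaks over 100% of its TSS window. The TSS window of HLA-DQA1 was covered to 83.4% by xxChIP H1.2, and HLA-DQB1, its partner chain, had no peak of any list in its body or TSS window. HLA-DQB1 lay in the longest stretch of the region without xChIP H1.2 peaks, of 60854 bp (32598938 to 32659791), in which 92.4% of 50-base words of the reference were unique. This share describes the reference and not the HLA alleles of HL-60/S4. Whether reads with too many mismatches to the reference were lost at this or any other HLA gene, of either class, was not tested.

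HLA-DPB1 had the largest xChIP H1.2 coverage of the class II HLA genes, 60.2%, beside 17.3% for xxChIP H1.2, and HLA-DPA1 had 12.3% and 6.87%. The paralogues of DQ diverged, since HLA-DQA2 was covered only by xxChIP H1.2 (35.6%) and HLA-DQB2 only by the xChIP lists (25.8% and 24.4%). Of the peptide exchange genes, HLA-DOA had 30.2% of its body under xChIP H1.2 and 64.1% under xxChIP H1.2, and xChIP H1.2 covered 100% of its TSS window. For HLA-DMA these H1.2 values were 29.4% and 20.9%, and xxChIP H1.5 covered 56.9%, whereas peaks covered HLA-DMB in xChIP H1.2 alone (19.2%) and HLA-DOB in xxChIP H1.5 alone (13.1%). The smallest differences between xChIP H1.2 and xxChIP H1.2 in class II were those of HLA-DQA2 (-35.6 points), HLA-DRA (-34.5) and HLA-DOA (-33.9), and the largest those of ENSG00000248993 (46.5), HLA-DPB1 (42.9) and PSMB9 (32.6).

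Among the peptide-supply genes, TAP1 and TAP2 form the peptide transporter, and PSMB8 and PSMB9 are immunoproteasome subunits. The TSS windows of PSMB9 and TAP1, which start close together on opposite strands, lay under xChIP H1.2 peaks over 93.5% and 69.1% of their length, without a peak of another list. TAP2 had 30.5% of its body under xChIP H1.2 and 17.1% under xxChIP H1.2, and PSMB8 had no peak of any list in its body. BRD2, a bromodomain protein, and BTNL2, a butyrophilin-like protein, also had none.

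Partners of these genes that lie outside the region were taken as fixed lists. Of 11 class I pathway genes, 7 had an xChIP H1.2 peak at the TSS window and none had an xxChIP peak of either isotype, and 6 bodies were covered to at least 50% by xChIP H1.2. CALR (calreticulin) and PDIA3 were at 100%, and B2M, the invariant light chain of class I molecules, had no peak of any list. Of 10 class II pathway genes, 6 had an xChIP H1.2 peak at the TSS and 1 had an xxChIP peak (CTSS, xxChIP H1.5). CD74 (the invariant chain), IFI30 and RFXANK were covered to 100% by xChIP H1.2, CIITA to 51.3% and RFX5 to 31.0%. Of 10 complement genes outside the region, 3 had an xChIP H1.2 peak at the TSS (C1R, C1S and C9). Over all genes the shares were 47.2% of TSS windows and 31.0% of bodies for xChIP H1.2, and 7.87% (H1.2) and 7.14% (H1.5) of TSS windows for xxChIP. No test was made on these chosen lists.

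Over each whole interval, gene bodies included, coverage was also measured. xChIP H1.2 peaks covered 70.6% of the class III interval, 58.0% of class I and 24.6% of class II, beside 26.4% of chromosomes 1 to 22 and X. xxChIP H1.2 covered 5.74%, 12.1% and 26.6%, beside 20.2%, and xxChIP H1.5 covered 6.34%, 11.5% and 24.5%, beside 17.2%. Peaks of at least 20 kb made up 76.8% of the covered bases of xChIP H1.2 in class III, 69.7% in class I and 24.7% in class II, beside 36.1%. No xxChIP peak of that length lay in class III. In class II both xxChIP lists had 2, at 32648255 to 32687719 and 32990557 to 33031589 for H1.2 and at 32656825 to 32689194 and 32990874 to 33027052 for H1.5, and none of them overlapped a protein-coding gene. In class III 89.0% of the bases under xChIP H1.5 peaks also lay under xChIP H1.2 peaks, in class I 78.7% and in class II 46.4%, beside 54.8%, where xChIP H1.2 covered 70.6%, 58.0%, 24.6% and 26.4% of the sequence.

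**Figure D4:**
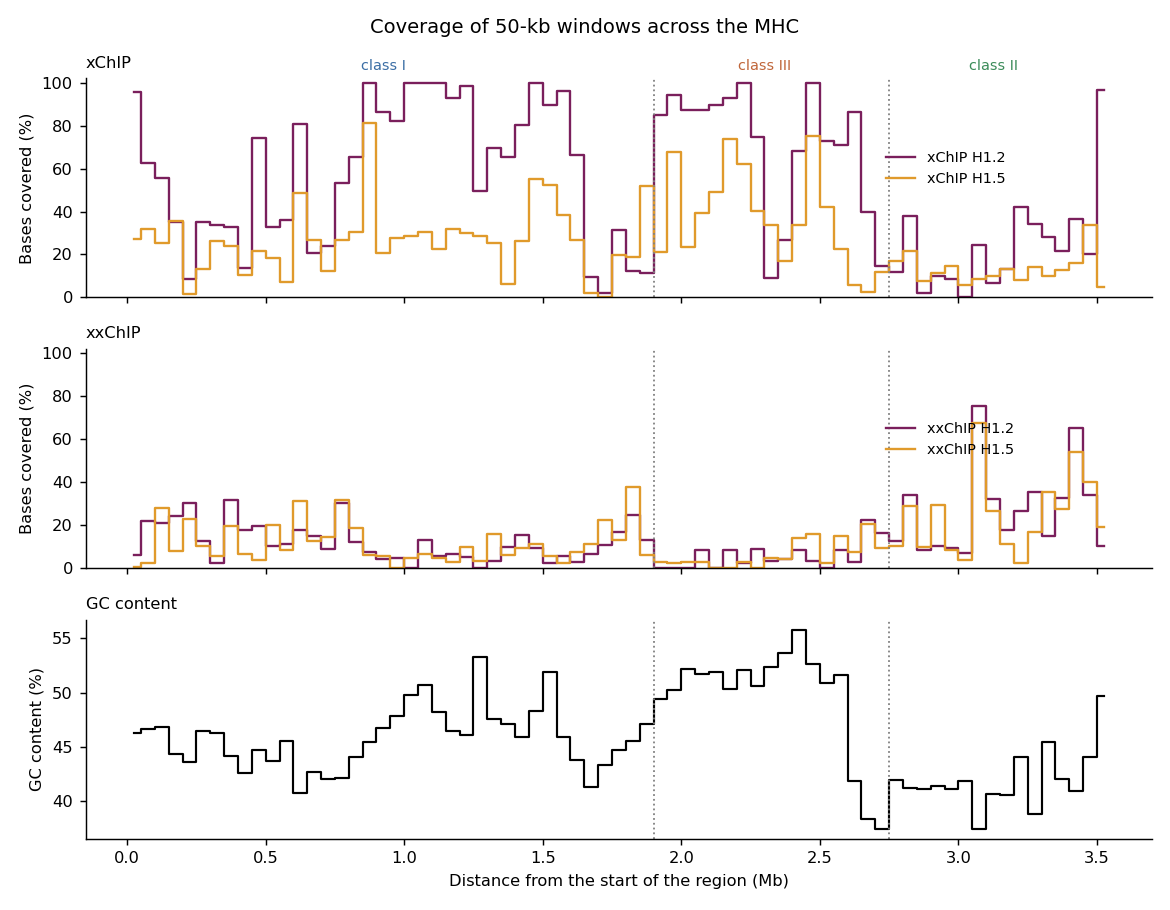
Share of bases covered by peaks (%, upper 2 panels) and GC content (%, lower panel) in 50-kb windows against the distance from the start of the region (Mb), with dotted lines between class I, class III and class II. xChIP H1.2 has a median of 85.0% over the 17 class III windows and 20.9% over the 16 class II windows, where xxChIP H1.2 has medians of 3.17% and 22.4%.

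The genes on either side of the region were measured in the same way. In the 2 Mb before class I, 22 of 55 genes had an xChIP H1.2 peak at the TSS and the median body coverage was 8.61%. In the 2 Mb after class II, 32 of 40 had one and the median was 70.8%, beside 47.2% and 26.3% over all genes, so class II lay between more widely covered class III genes and more widely covered genes beyond 33.15 Mb.

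GC content moved with these values. It was 49.6% over the class III interval, 45.8% over class I and 42.0% over class II, beside 40.9% over chromosomes 1 to 22 and X. Genes were therefore also compared within quintiles of gene body GC content over all genes. In the quintile from 48.1 to 54.0% the median xChIP H1.2 body coverage was 100% over 43 class III genes, 88.9% over 23 class I genes and 5.74% over 5 class II genes, beside 43.6% over genes outside the region. In the quintile from 43.0 to 48.1% it was 71.0% over 3 class III genes, 41.4% over 14 class I genes and 20.6% over 11 class II genes, beside 32.3%. The order of the classes by body median was thus the same within both quintiles, on small numbers for class II and, in the lower quintile, class III. At the TSS window this was not so, since in the upper quintile xChIP H1.2 overlapped 87.0% of class I, 83.7% of class III and 60.0% of class II genes, beside 58.7%. In the lower quintile the shares were 57.1%, 100% and 9.09%, beside 51.2%. In the quintile from 39.3 to 43.0% they were 40.0% of 5 class II genes and 0% of 2 class I genes, beside 41.0%. At the TSS window class II thus stood well below genes outside the region only in the quintile from 43.0 to 48.1%. MHC genes were also shorter, with a median length of 8751 bp against 27256 bp over all genes. Length differed between the classes too, with medians of 5730 bp in class III, 10194 bp in class I and 12912 bp in class II. The part of length was not tested.

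**Figure D5:**
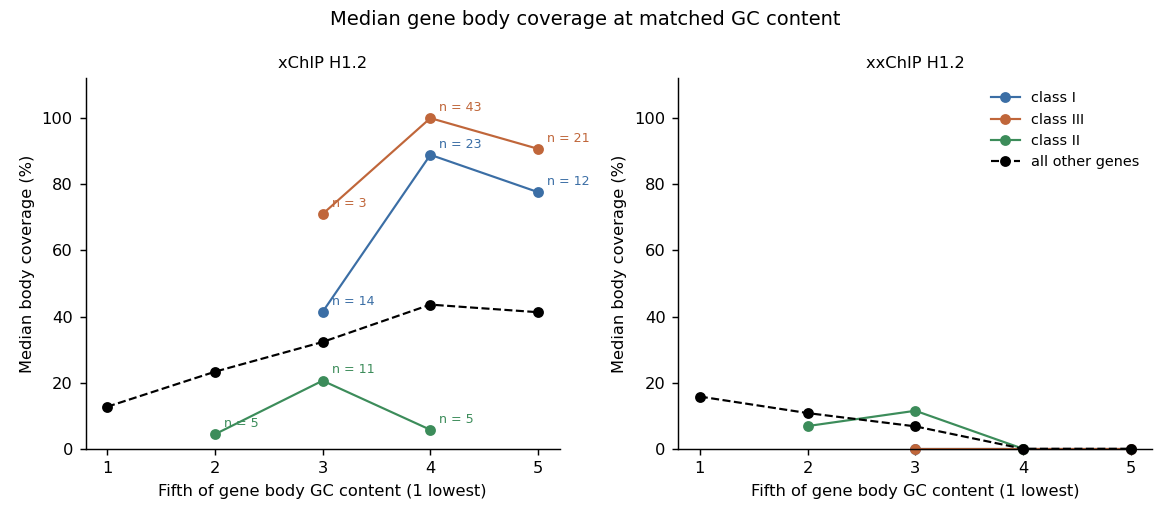
Median gene body coverage (%, vertical axis) by quintile of gene body GC content (horizontal axis, 1 lowest) for class I, class III, class II and all other protein-coding genes, for xChIP H1.2 (left, with gene numbers) and xxChIP H1.2 (right), where points stand for groups of at least 3 genes. For xChIP H1.2 class III and class I lie above the other genes and class II below them in each quintile shown, and for xxChIP H1.2 all class I and class III medians are 0%.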

How the data were processed

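H1.2 and H1.5 had been immunoprecipitated from HL-60/S4 cells by 2 protocols, xChIP and xxChIP. The authors sequenced paired ends, aligned them to hg19 with Bowtie2 (up to 2 mismatches, unique alignments only), ran MUSIC at its defaults to call peaks, and merged those of 3 replicates. The deposited values are peak positions (chromosome, start and end), 1 list per protocol and antibody, with no score or count. Merging can lengthen peaks, and the number of replicates behind a peak is unknown. Read length is not given in the sources used here. The lists held peaks on chromosomes 1 to 22, X and Y and on 0 alternative MHC haplotypes. The 6 Input samples were not used here.

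Samples were grouped by their titles. Protein-coding genes came from GENCODE 44 lifted to GRCh37, the hg19 assembly. The gene body was the gene record and the TSS that of the Ensembl canonical transcript, chosen after seeing the data because the gene record of 30 of the 140 genes starts over 1000 bp from it. Genes without one (279 of 20098) kept the gene's 5′ end. Covered bases were summed per gene with numpy 2.4.6 under Python 3.11.15, helped by pyfaidx 0.9.0.4, samtools 1.23.1, numba 0.67.0 and scipy 1.17.1, tested on simulated data. Unique 50-base words were counted on both strands of the whole reference. Upstream sequences were aligned globally.

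The members and lists were chosen with earlier results of these data known. Named genes were those of role lists by function, the 3 largest and 3 smallest differences between xChIP H1.2 and xxChIP H1.2 body coverage in each class (ties in genomic order), the genes of most counts of 5 or fewer, and pathway genes outside the region. The genes of the longest peaks and peak-free stretches, LY6G6D, LST1 to AIF1 and the 3 genes named from the longest peak were chosen after their values were seen. No test was made, since the merged lists hold no replicates and genes are not replicates. Alternatives changed the window, the overlap rule, the peak length, the gene set, the class boundary and the gene model. A few items are not reported here.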

Additional observations from a re-analysis of the deposited data

How the results depend on the processing

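No paired analysis was possible because the lists are merged over replicates and carry no replicate numbers, and for the same reason no replicate could be left out. Counts of TSS windows that moved by over 1.5 times, and median body coverages that left the 95% order-statistic interval of the reported median over genes, were 34 of 192 values, and the other 158 did not. Some medians shifted widely inside that interval. Without read-through genes the class I xChIP H1.2 median was 71.4% in place of 56.8%. With peaks of at least 2000 bp the class II xChIP H1.2 median was 0% in place of 12.3%. For xChIP H1.5 it was then 0% in place of 11.4% in class I and 10.1% in place of 18.7% in class III. With windows of 500 bp on either side, xxChIP counts were 0 (H1.2) and 3 (H1.5) in class I, 3 (H1.5) in class III, and 3 (H1.2) and 1 (H1.5) in class II, where xChIP H1.5 had 0. With 2500 bp xChIP counts were 21 (H1.5) in class I, 39 (H1.5) in class III, and 10 (H1.2) and 2 (H1.5) in class II, and xxChIP counts were 10 (H1.5) in class I and 8 for both isotypes in class II. With at least 50% of the window covered, xxChIP counts were 0 (H1.2) and 2 (H1.5) in class I and in class III, and 3 and 1 in class II, where xChIP H1.5 had 0. With peaks of at least 2000 bp, xxChIP counts were 3 (H1.2) and 2 (H1.5) in class I, 0 and 2 in class III, and 1 (H1.5) in class II, where xChIP H1.5 had 0. With the gene's 5′ end as TSS, an alternative chosen after seeing the data, class II had 1 for xxChIP H1.5. With all gene bases pooled in place of the median, xChIP coverage was 66.2% (H1.2) in class III and 19.2% (H1.5) in class I, and xxChIP coverage was 6.01% (H1.2) and 5.43% (H1.5) in class I, 5.67% and 6.38% in class III, and 11.5% (H1.5) in class II. The cause was not tested. Shares of TSS windows over all genes were counted under the main setting only, so the window counts above have no background beside them. For xChIP H1.2 the order class III, class I, class II held under every alternative run, for shares of windows and for body coverage. The distance between class III and class I did not, since pooled coverage was 66.2% and 62.1%, with 20.1% in class II. For xxChIP H1.2 the class II share of windows stayed the highest under every alternative, but class I stood below class III (0 against 2.94%) with 500 bp and level with it at 0 with 50% of the window covered. The xxChIP H1.5 counts are too small to rank the classes.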

Other observations

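The TRIM genes of class I, a cluster of E3 ubiquitin ligase genes, were covered unequally by xChIP H1.2, which reached 100% of TRIM31, 42.7% of TRIM26, 39.3% of TRIM15, 32.4% of TRIM40 and 0% of TRIM10 and TRIM39. Of these, TRIM10 had 28.9% of its body under xChIP H1.5. The genes at the psoriasis-associated end of class I stood together, with C6orf15, PSORS1C1, CDSN, PSORS1C2 and CCHCR1 at 100% for xChIP H1.2, while xChIP H1.5 covered 100% of PSORS1C2, 88.6% of CCHCR1, 38.4% of PSORS1C1 and none of CDSN. The gene ATF6B, an endoplasmic reticulum stress factor, and its neighbour FKBPL were at 100% for both xChIP lists. These genes were chosen after their values were seen.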
